A study of Mus musculus with 6 samples.

Results

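Keratin-associated proteins are small proteins of the hair shaft, and their genes carry the prefix Krtap in the mouse. All genes of the count table whose symbol starts with Krtap were taken, whatever their values, which gave 52 of 17572 genes. They were measured by RNA sequencing in scars of wild-type C57BL/6 mice, collected 2 weeks after surgery. Hypertrophic scars (HS, n = 3 libraries) came from wounds of the upper back whose edges had been pulled under tension and stitched to the ribs. Normal scars (NS, n = 3 libraries) came from wounds of the lower back that had been closed where they lay, with no tension. Tension and position on the back differ together between the groups and cannot be told apart. The labels list separate samples and name no animals, so the p-values below rest on the spread of these samples alone, part of which may be technical.

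The cortex of a hair is built from bundles of hair keratin filaments set in a matrix of keratin-associated proteins, which are joined to the filaments and to each other by disulfide bonds. Matrix cells at the base of a growing follicle switch on hair keratins first and most keratin-associated proteins later, as they move up into the shaft. The proteins fall into 3 kinds: the high sulfur and the ultra-high sulfur proteins, which are rich in cysteine, and the high glycine-tyrosine proteins. In human hair, families 5, 10 and 12 are known from the cuticle, the outer scale layer of the shaft, while families 1 to 4, 8 and 11 are known from the cortex.

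The opening 90 coding bases of 6 members show this division and how alike neighbouring copies are. Capitals mark cysteine codons in the 4 cysteine-rich members, Krtap4-1, Krtap1-5, Krtap3-3 and Krtap3-2, and glycine and tyrosine codons in Krtap8-1 and Krtap6-1. The sequences are those of GENCODE M21 transcripts on the mm10 build, written 5′ to 3′ on the coding strand.
Krtap4-1: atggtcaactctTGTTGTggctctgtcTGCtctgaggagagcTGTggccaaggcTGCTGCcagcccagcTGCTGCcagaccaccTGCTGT
Krtap1-5: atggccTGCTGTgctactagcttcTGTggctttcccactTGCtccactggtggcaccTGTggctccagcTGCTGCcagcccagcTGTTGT
Krtap3-3: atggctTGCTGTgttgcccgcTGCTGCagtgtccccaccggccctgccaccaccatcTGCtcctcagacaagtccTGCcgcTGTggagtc
Krtap3-2: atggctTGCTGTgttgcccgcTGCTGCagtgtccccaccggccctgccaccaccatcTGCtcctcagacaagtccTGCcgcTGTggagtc
Krtap8-1: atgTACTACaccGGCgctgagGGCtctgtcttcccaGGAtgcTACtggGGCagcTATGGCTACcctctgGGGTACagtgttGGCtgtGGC
Krtap6-1: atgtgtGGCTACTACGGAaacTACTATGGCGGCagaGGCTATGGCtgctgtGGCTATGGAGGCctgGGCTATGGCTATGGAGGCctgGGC
On chromosome 11 they lie on the minus strand at chr11:99628093-99628182 (Krtap4-1), chr11:99580876-99580965 (Krtap1-5), chr11:99550720-99550809 (Krtap3-3) and chr11:99556711-99556800 (Krtap3-2). Krtap8-1 lies on the minus strand at chr16:89487818-89487907 and Krtap6-1 on the plus strand at chr16:89031718-89031807. In Krtap4-1, 10 of the 30 codons are for cysteine, and in Krtap6-1, 22 of the 30 are for glycine or tyrosine. Krtap3-3 and Krtap3-2 are identical over all 90 bases shown.

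The 52 genes belong to 25 numbered subfamilies and lie in 4 clusters, with 23 members on chromosome 11, 22 on chromosome 16, 5 on chromosome 7 and 2 on chromosome 10. A total of 50 members have a single exon. By amino acid composition of the annotated coding sequence, 15 members were high glycine-tyrosine (at least 35% of residues), 16 were ultra-high sulfur (over 30% cysteine) and 20 were high sulfur (the rest), and Krtap19-9a is annotated as a processed pseudogene without a coding sequence. This rule puts the cysteine-rich cuticle-type proteins Krtap5-2 and Krtap5-3 with the glycine-tyrosine class, at 36% and 39.3% glycine plus tyrosine and 34.6% and 35.1% cysteine. It puts Krtap7-1, at 29.9% glycine plus tyrosine, with the high sulfur class. The row named Krtap10-10 carries the gene identifier that the GENCODE annotation calls Gm9639.

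Libraries held 22442713 to 27859889 counts in HS and 20375395 to 24828715 counts in NS. Krtap genes took 71313, 87445 and 78583 of these counts in the HS libraries, in the order of replicates 1, 2 and 3 used throughout, and 65026, 82005 and 50270 in the NS libraries. The share of all counts was 0.256%, 0.3896% and 0.2831% in HS, against 0.2935%, 0.4025% and 0.2025% in NS. Libraries of both groups thus held hair shaft transcripts, and the 14 hair shaft keratins in the table, the marker genes of the shaft, had counts above 0 in every library. The table holds counts per gene, and levels are given below as CPM, counts scaled by the TMM-corrected size of each library.

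Krtap genes differed widely in level per length of exon, and a few of them made up a large part of the family. Per kilobase of exon, Krtap8-1 averaged 634 ± 55.5 CPM in HS scars and 675 ± 188 CPM in NS scars (SD, n = 3 each), and Krtap7-1 averaged 681 ± 57.7 CPM in HS scars and 611 ± 194 CPM in NS scars. The levels of these top members did not differ from each other beyond their spread. Krtap1-5, with 298 ± 110 CPM per kilobase in HS and 232 ± 103 in NS, and Krtap19-5, with 300 ± 40 in HS and 228 ± 110 in NS, came next and also overlapped each other. Krtap7-1, Krtap8-1 and Krtap1-5 together held 36.6%, 33.4% and 35% of the family's counts in HS and 37.0%, 33.1% and 33.4% in NS, so that their joint share was alike in all 6 libraries. At the other end, 3 members were too low to be tested. Krtap13 had 0, 0 and 6 counts in HS and 0 in each NS library, Krtap20-2 had 0, 9 and 3 counts in HS and 2, 0 and 0 in NS, and Krtap4-13 had 0, 5 and 5 counts in HS and 0, 3 and 15 in NS. A count of 0 allows up to 3 counts, worth 0.108 to 0.147 CPM in these libraries (counting error only), and at these counts no difference between the groups was detectable for Krtap13, Krtap20-2 or Krtap4-13.

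**Figure D1:**
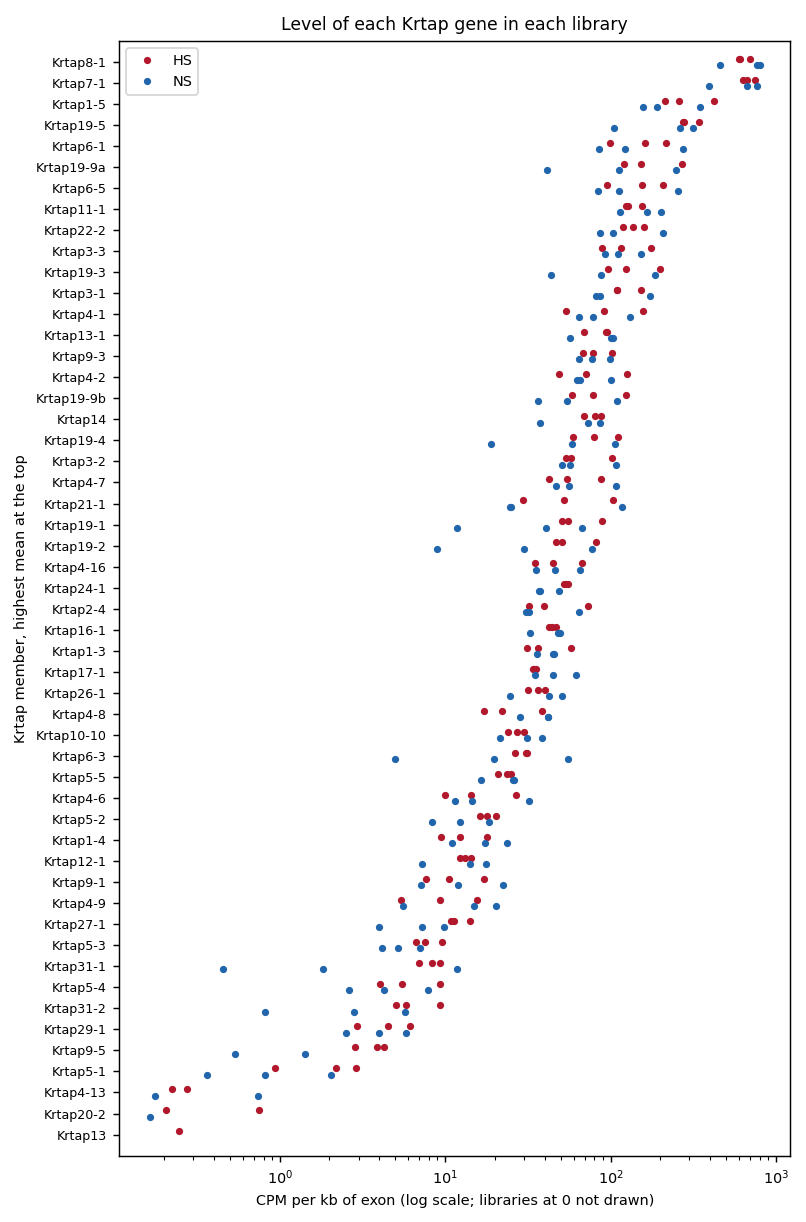
Level of each of the 52 Krtap genes in CPM per kilobase of exon (log scale), with 1 point per library, HS in red drawn above NS in blue; libraries at 0 are not drawn. Krtap8-1 and Krtap7-1 are at the top, with means over the 6 libraries of 654 and 646, and HS and NS points overlap in most rows.

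The family as a whole was at a similar level in the groups, with a larger spread inside each group than between their means. Summed over the 52 genes, the level was 2681.6, 3896.3 and 2877.7 CPM in HS, against 2843.5, 3939.1 and 2010.1 CPM in NS. Replicate 2 was the highest library of each group, and NS replicate 3 was the lowest of all 6. The means were 3151.9 ± 652 CPM in HS scars and 2930.9 ± 967 CPM in NS scars (SD, n = 3 each), a log2 ratio of 0.10. Without HS replicate 2 this ratio was -0.08, without NS replicate 3 it was -0.11, and without NS replicate 2 it was 0.37, so single libraries set its sign and size. In bulk tissue, the number of hair-forming cells and the amount of these RNAs per cell cannot be told apart.

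Hair shaft keratins, the filament proteins to which these proteins bind, were summed over the 14 genes in the table. They were at 2249.6, 2335.8 and 2100.7 CPM in HS scars and at 2692.2, 2375.7 and 1742.8 CPM in NS scars. Krtap counts per count of shaft keratin were 1.19, 1.67 and 1.37 in HS, against 1.06, 1.66 and 1.15 in NS. Replicate 2 of each group had the highest ratio, and the groups overlapped. The mean ratio was 1.41 ± 0.241 in HS and 1.29 ± 0.323 in NS. NS replicate 3, which had the lowest Krtap sum, also had the lowest keratin sum.

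**Figure D2:**
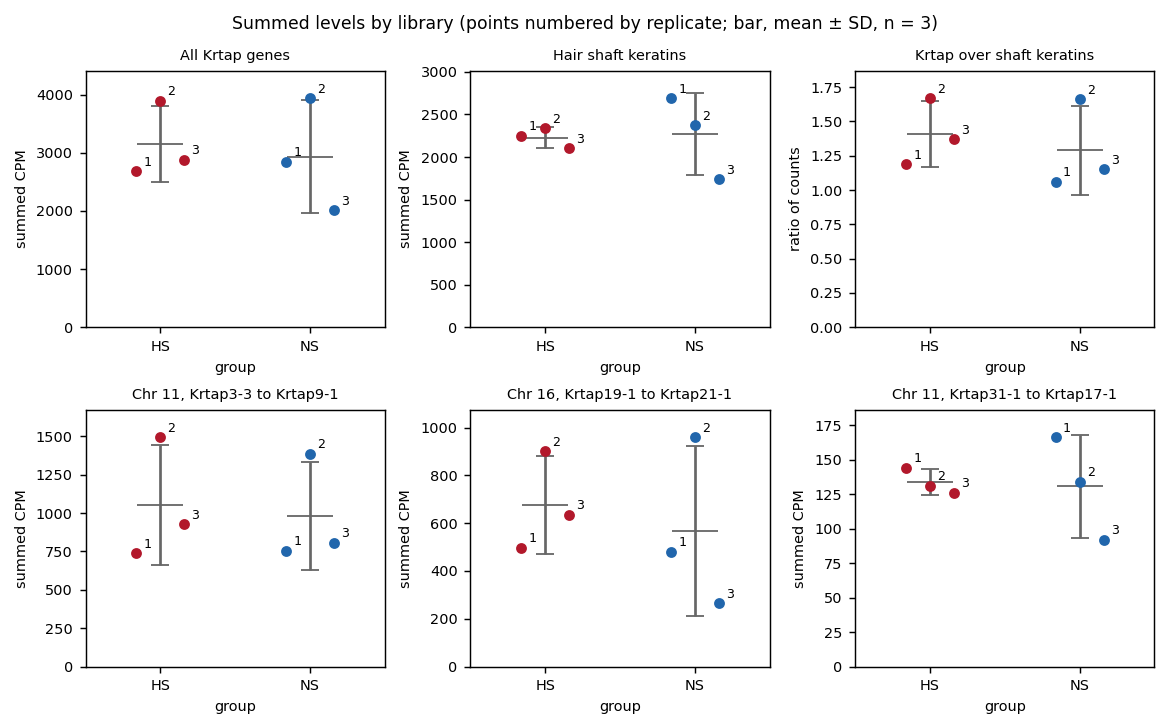
Summed CPM, or ratio of counts in the upper right panel, for each library in HS (left, red) and NS (right, blue), with points numbered by replicate and grey bars for the mean ± SD (n = 3). Replicate 2 is the highest of its group for all Krtap genes, for the ratio, and for the runs from Krtap3-3 to Krtap9-1 and from Krtap19-1 to Krtap21-1, but not for the run from Krtap31-1 to Krtap17-1.

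Setting HS against NS asks what differs between upper-back scars formed under tension and lower-back scars formed without it. No Krtap gene passed the test. The 49 tested members gave 0 calls at an adjusted p of 0.05 (edgeR quasi-likelihood test, Benjamini-Hochberg over all 14513 genes tested), where 8.85% of all genes tested were called, 6.33% as higher and 2.51% as lower in HS. At an unadjusted p of 0.05, 5 members passed, against 26.3% of all genes. The HS and NS libraries did not overlap in 3 members, 6.12% of those tested, against 32.3% of all genes tested. The log2 fold changes of the members had a median of 0.11 and ran from -0.52 to 2.50, with 33 positive and 16 negative, and the median of all genes tested was -0.01. The standard errors of the members had a median of 0.368 on the log2 scale and those of all genes tested a median of 0.163. In simulated data the edgeR procedure found 8.96% of 1.5-fold differences, so the lack of calls does not show equal levels. DESeq2 called 2 members, Krtap9-5 (adjusted p = 0.02419) and Krtap24-1 (adjusted p = 0.03533), where it called 16.8% of all genes, and limma-voom called 0 members, where it called 6.51% of all genes. Without HS replicate 2, edgeR called 1 member, Krtap4-8 (log2 fold change -0.93, adjusted p = 0.00608), where it called 22% of all genes, while with all libraries Krtap4-8 was at -0.52 ± 0.309 (adjusted p = 0.3298).

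**Figure D3:**
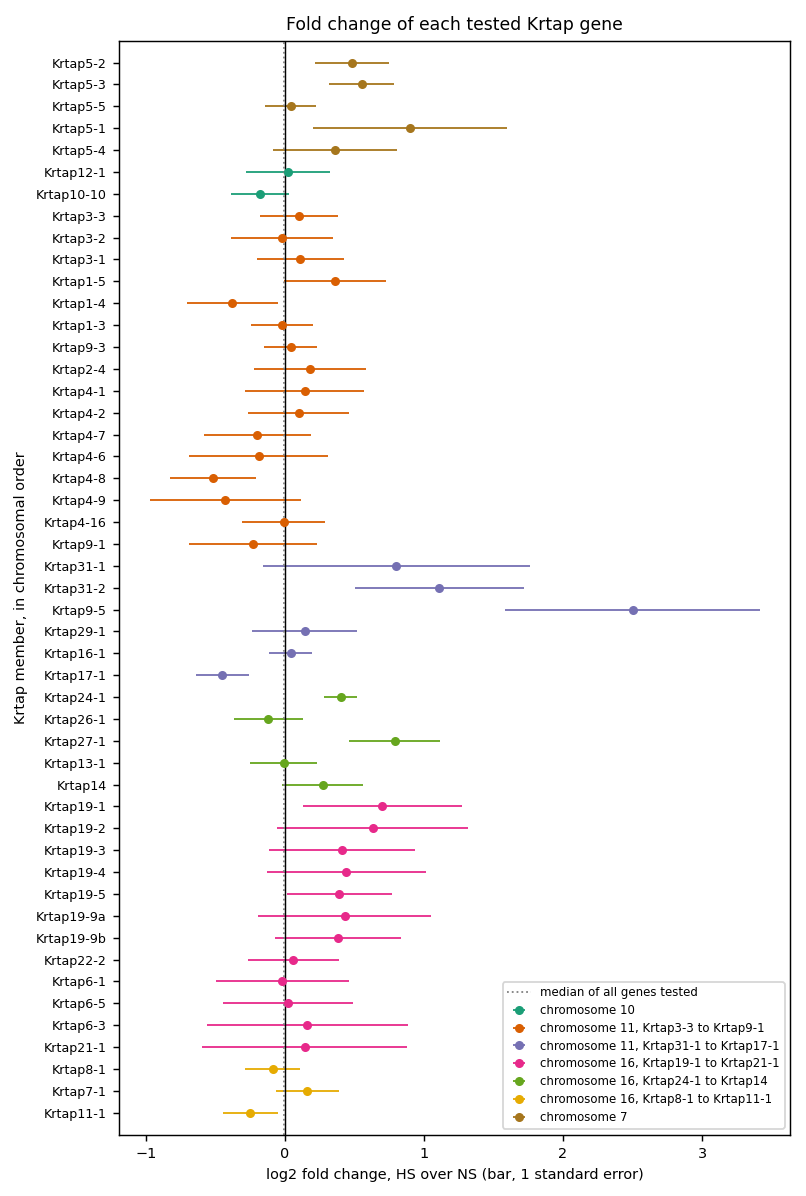
Log2 fold change of HS over NS for the 49 tested Krtap genes, in order along the chromosomes, with bars of 1 standard error and colours for the runs of neighbouring genes; the dotted line is the median of all genes tested. No member passed an adjusted p of 0.05, and Krtap9-5 lies farthest right at 2.50 with a wide bar.

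The 5 members with the smallest p follow. Krtap24-1, Krtap27-1 and Krtap17-1 are each the only member of their subfamily in the table and were to be named whatever their values. Krtap9-5 and Krtap5-3 were named after their values were seen. Krtap24-1, a member of low cysteine content on chromosome 16, had 82.7, 87.6 and 85.3 CPM in HS, against 77.2, 59 and 57.9 CPM in NS. All 3 HS libraries were above all 3 NS libraries, and the log2 fold change was 0.40 ± 0.120 (SE; adjusted p = 0.07162, edgeR). Its exons overlap those of Gm49688 on the opposite strand, and the sources used here do not say whether the counting kept the strand. Krtap27-1, which lies beyond Krtap26-1 from Krtap24-1, had 6.99, 9.18 and 7.32 CPM in HS, against 4.68, 6.39 and 2.56 CPM in NS. The groups did not overlap here either (log2 fold change 0.79 ± 0.327, adjusted p = 0.1627). In Krtap26-1, between them, the groups overlapped (log2 fold change -0.12 ± 0.246, adjusted p = 0.8094). Krtap9-5, an ultra-high sulfur member on chromosome 11, had 4.63, 4.19 and 3.08 CPM in HS, against 1.53, 0.576 and 0 CPM in NS. It was low in every library and had 0 counts in NS replicate 3, and its log2 fold change was 2.50 ± 0.916 (adjusted p = 0.1311). That value was 3.82 without NS replicate 1, 1.89 without NS replicate 3 and 3.98 under limma-voom (adjusted p = 0.1058, 0.1037 and 0.07191). Krtap17-1, an ultra-high sulfur member that is also rich in glycine and tyrosine, was at 26.8, 25.8 and 26.2 CPM in HS, against 47.4, 34.0 and 26.5 CPM in NS. HS replicate 1 was above the lowest NS library, so the groups overlapped (log2 fold change -0.45 ± 0.194, adjusted p = 0.1779). Krtap5-3 had 15.9, 12.5 and 11.1 CPM in HS scars and 8.57, 11.7 and 6.88 CPM in NS scars (log2 fold change 0.55 ± 0.237, adjusted p = 0.1814).

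Among the high sulfur proteins, which hold the filaments of the cortex, Krtap1-5 was at 223, 439 and 269 CPM in HS, against 198, 364 and 163 CPM in NS. Its libraries ran over a 2.7-fold range and the groups overlapped (log2 fold change 0.36 ± 0.369, adjusted p = 0.5818). Krtap7-1, the member with the most counts, falls in this class by the composition rule, at 29.9% glycine plus tyrosine and 9.2% cysteine. It was at 417, 461 and 391 CPM in HS scars and at 413, 480 and 246 CPM in NS scars. NS replicate 3 alone stood below the other 5 libraries (0.16 ± 0.227, adjusted p = 0.713). Krtap11-1, known from the cortex of human hair, was at 156, 128 and 125 CPM in HS scars and at 203, 167 and 115 CPM in NS scars (-0.25 ± 0.199, adjusted p = 0.4788). Krtap16-1 varied least among all tested members but Krtap24-1, at 88.2, 84.1 and 80.6 CPM in HS scars and 94.1, 91.1 and 61.5 CPM in NS scars, a 1.53-fold range. Over the whole class, the sum was 1596.3 ± 259 CPM in HS scars and 1452.8 ± 411 CPM in NS scars.

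The ultra-high sulfur proteins were led by the fourth subfamily, whose 8 members summed to 209, 511 and 303 CPM in HS, against 253, 487 and 317 CPM in NS. Replicate 2 was the highest library of each group, and the means were 341 ± 155 CPM in HS scars and 352 ± 121 CPM in NS scars. Krtap4-1, its most abundant gene, had 54.6, 160 and 92.3 CPM in HS scars and 65.1, 133 and 79.4 CPM in NS scars (log2 fold change 0.14 ± 0.428, adjusted p = 0.8709). Within the subfamily the members did not all follow each other. Krtap4-8 had 16.9, 38.0 and 21.7 CPM in HS scars and 27.7, 41.1 and 41.1 CPM in NS scars, and Krtap4-9 had 5.75, 16.6 and 9.92 CPM in HS scars and 5.86, 15.9 and 21.5 CPM in NS scars, so that NS replicate 3 was among their highest libraries, while it was near the middle for Krtap4-1. The chromosome 7 subfamily, Krtap5, which is known from the cuticle in human hair, summed to 87.1, 71.7 and 67.1 CPM in HS scars and 76.3, 65.0 and 41.4 CPM in NS scars. In this subfamily replicate 1 was the highest library of each group. The class as a whole, which by the composition rule leaves out Krtap5-2 and Krtap5-3, was at 474 ± 168 CPM in HS scars and 494 ± 129 CPM in NS scars.

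The high glycine-tyrosine class had its largest range in the NS group. It holds small proteins of the cortex and, by the composition rule, also the cuticle-type Krtap5-2 and Krtap5-3. Krtap8-1 was at 343, 400 and 348 CPM in HS, against 441, 459 and 263 CPM in NS (log2 fold change -0.09 ± 0.201, adjusted p = 0.8169). The 7 rows of the nineteenth subfamily summed to 306, 506 and 347 CPM in HS, against 276, 461 and 115 CPM in NS. NS replicate 3 was far below the other 5 libraries, and replicate 2 was again the highest of each group. Krtap19-5, the most abundant of them, was at 135, 169 and 136 CPM in HS scars and at 129, 155 and 51.1 CPM in NS scars (0.39 ± 0.376, adjusted p = 0.5574). Krtap19-2 ran over a 9.15-fold range, with 30.2, 52.3 and 32.7 CPM in HS scars and 19.3, 49.9 and 5.72 CPM in NS scars. Krtap6-1 had 58.8, 129 and 95.5 CPM in HS scars and 72.5, 164 and 50.5 CPM in NS scars, and Krtap21-1 had 19.2, 67.2 and 34.1 CPM in HS scars and 16, 76.8 and 16.4 CPM in NS scars. In both genes the groups overlapped, and NS had the highest and the lowest library. The class summed to 1051.6 ± 221 CPM in HS scars and 962 ± 433 CPM in NS scars.

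When the rows of each numbered subfamily were added up before the fit, 24 of the 25 subfamilies were tested and 0 were called, where 8.99% of all rows were called. The smallest adjusted p was that of Krtap24 at 0.07042, a subfamily of 1 gene, and the next were Krtap27 at 0.1612 and Krtap17 at 0.1761 (edgeR, Benjamini-Hochberg). Among subfamilies of several genes, Krtap31 had a log2 fold change of 0.93 (adjusted p = 0.5115), Krtap19 of 0.44 (adjusted p = 0.599) and Krtap4 of -0.05 (adjusted p = 0.9544). Krtap5 as a sum was at 0.31 (adjusted p = 0.4119, edgeR). The most abundant members of further subfamilies, named next, had log2 fold changes smaller in size than their standard errors of 0.185 to 0.405. Such values do not show equal levels. Krtap2-4, Krtap12-1, Krtap13-1, Krtap14, Krtap22-2, Krtap26-1 and Krtap29-1 had log2 fold changes between -0.12 and 0.27 in the fit of single genes, and Krtap3-3, Krtap5-5, Krtap9-3 and Krtap10-10 were at 0.10, 0.04, 0.04 and -0.18.

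The differences that recurred across the members were differences between libraries inside the groups. NS replicate 3 was the lowest of the 6 libraries for 35 of the 49 tested members (71.4%), against 13.6% of all genes tested. HS replicate 2 or NS replicate 2 was the highest library for 31 members (63.3%), against 28.2% of all genes tested, and these were the top pair of libraries for 27 members (55.1%), against 3.71% of all genes tested. Of the variance of log2 levels over libraries, 22.5% lay between HS and NS in the Krtap members and 51.9% in all genes tested. The members share libraries and are not independent of each other, so these shares carry no p.

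**Figure D4:**
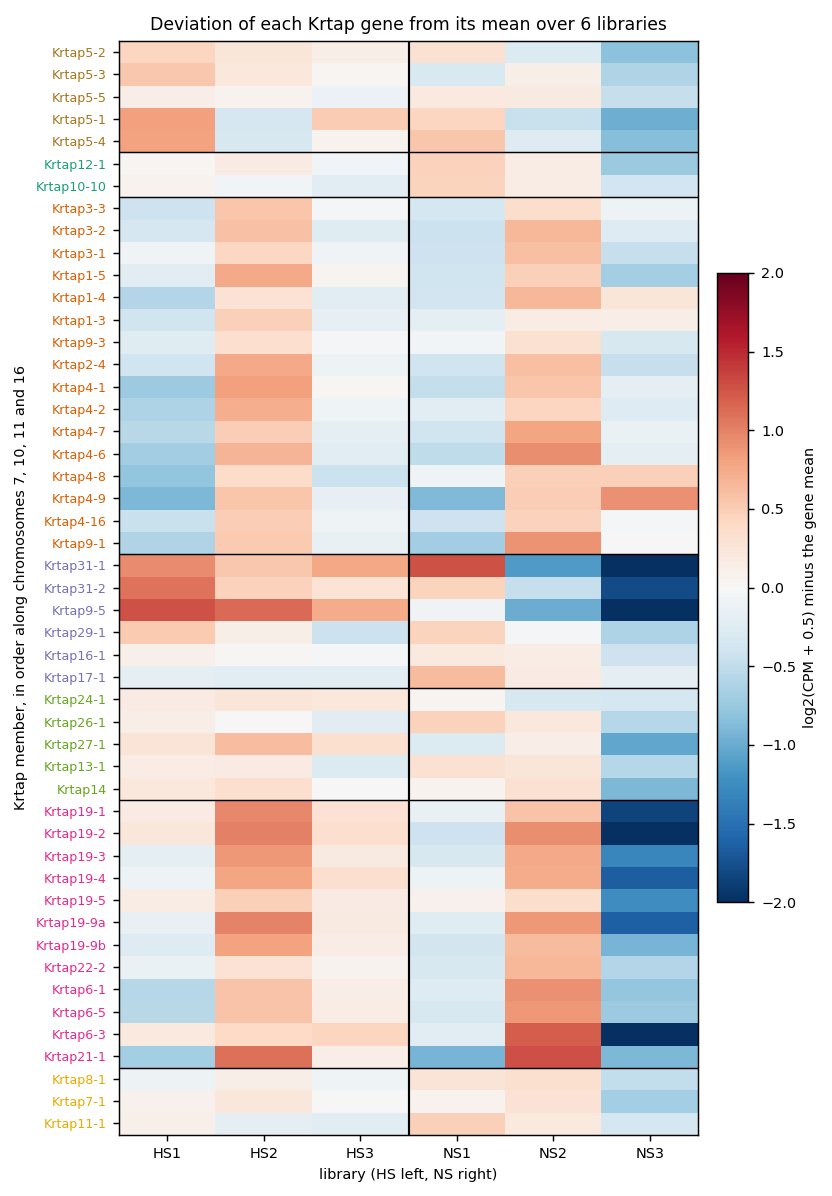
Deviation of log2(CPM + 0.5) from the gene's mean over the 6 libraries for the 49 tested Krtap genes in chromosomal order, HS columns left and NS columns right; horizontal lines separate runs of neighbouring genes and colours saturate at 2. The columns of HS replicate 2 and NS replicate 2 are red through the runs from Krtap3-3 to Krtap9-1 and from Krtap19-1 to Krtap21-1, and NS replicate 3 was the lowest library for 35 members.

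Many neighbouring genes, though not all, shared their library pattern, and the runs described here were chosen after their values were seen. In the chromosome 11 run from Krtap3-3 to Krtap9-1 (mm10 chr11:99550130-99874432), which holds the first 4 subfamilies and 2 genes of the ninth, HS replicate 2 exceeded HS replicate 1 in all 16 tested members and NS replicate 2 exceeded NS replicate 1 in all 16. The run summed to 738, 1493.4 and 926 CPM in HS, against 754, 1386.3 and 806 CPM in NS. Replicate 2 was the highest of each group, and NS replicate 3 was not low. In the next run on the same chromosome, from Krtap31-1 to Krtap17-1, 0 of 6 members had replicate 2 above replicate 1 in either group, and NS replicate 3 was lowest in 5 of 6. That run summed to 144, 131 and 126 CPM in HS, against 166, 134 and 91.8 CPM in NS. The ratio of the first run to the second was 5.13, 11.4 and 7.37 in HS and 4.54, 10.3 and 8.78 in NS, so it varied more between libraries of a group than between the group means of 7.97 in HS and 7.88 in NS.

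On chromosome 16, the glycine-tyrosine run from Krtap19-1 to Krtap21-1 summed to 498, 901 and 635 CPM in HS, against 480, 959 and 266 CPM in NS. All 12 tested members of the run were highest in HS replicate 2 or NS replicate 2, and 11 of 12 were lowest in NS replicate 3. The nearby Krtap8-1, Krtap7-1 and Krtap11-1 summed to 916, 990 and 863 CPM in HS scars and 1055.6, 1105.4 and 625 CPM in NS scars. There NS replicate 3 was again lowest, while the sum of replicate 2 differed little from that of replicate 1. In both groups Krtap8-1 and Krtap7-1 were higher in replicate 2 than in replicate 1, and Krtap11-1 was lower. All 5 tested genes from Krtap24-1 to Krtap14, all 5 Krtap5 genes of chromosome 7 and both genes of chromosome 10 were lowest in NS replicate 3 as well.

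The log2 ratio of replicate 2 to replicate 1 had a median over the 49 members of 0.48 in HS and 0.56 in NS. For the run from Krtap3-3 to Krtap9-1 it was 1.01 in HS and 1.0 in NS, and for the run from Krtap31-1 to Krtap17-1 it was -0.27 in HS and -0.69 in NS, so its size differed between the groups for some members. Across the 49 members, the log2 ratio of replicate 2 to replicate 1 in HS had a Pearson r of 0.84 with that in NS, and across all 14513 genes tested the same r was 0.01. This is a description over genes that share libraries. The same HS ratio had r = -0.26 with the GC content of the exons, -0.28 with log2 exon length and 0.38 with mean level. The log2 ratio of NS replicate 3 to NS replicate 2 had r = 0.63 with log2 exon length and 0.50 with GC content across the members, and that of NS replicate 3 to NS replicate 1 had r = 0.20 with log2 exon length and 0.17 with GC content.

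**Figure D5:**
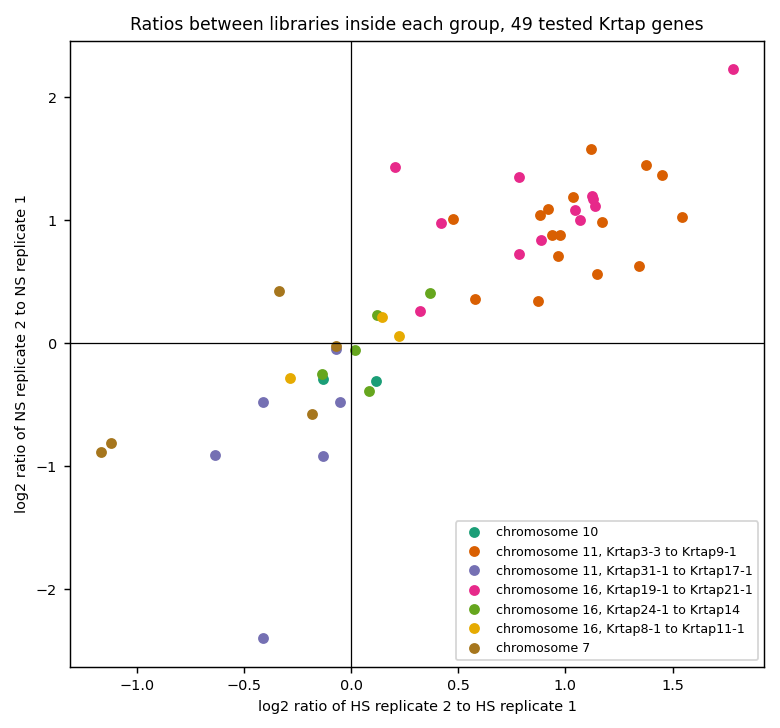
Each point is 1 of the 49 tested Krtap genes, placed by its log2 ratio of replicate 2 to replicate 1 in HS (horizontal axis) and in NS (vertical axis), coloured by run of neighbouring genes. Members of the runs from Krtap3-3 to Krtap9-1 and from Krtap19-1 to Krtap21-1 lie in the upper right, with both ratios above 0, and the members from Krtap31-1 to Krtap17-1 lie in the lower left.

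Krtap31-1, Krtap31-2 and Krtap9-5 lie next to each other on the plus strand of chromosome 11 and had the widest ranges among their neighbours. Krtap31-1 had 9.10, 6.73 and 8.06 CPM in HS, against 11.5, 1.78 and 0.44 CPM in NS. Krtap31-2 had 8.72, 5.44 and 4.72 CPM in HS, against 5.38, 2.64 and 0.76 CPM in NS. In both genes NS replicate 1 was inside or above the range of HS, and NS replicates 2 and 3 were below it. Their log2 fold changes were 0.80 ± 0.962 (adjusted p = 0.6507, edgeR) and 1.11 ± 0.607 (adjusted p = 0.2918). Krtap31-1 was at 2.85 without NS replicate 1, 0.41 without NS replicate 2, 0.25 without NS replicate 3, 1.68 with the replicate number as a block and 1.97 under limma-voom, none of them past the threshold. Krtap31-2 was at 1.89 without NS replicate 1 and 0.64 without NS replicate 3, also short of it. In Krtap9-5, unlike in Krtap31-1 and Krtap31-2, NS replicate 1 was below every HS library. The 60 bases before the start of Krtap31-1, Krtap31-2 and Krtap9-5 are shown as RefSeq gives them on GRCm38.p6. With them is 1 promoter from each of the runs before them and on chromosome 16. Capitals mark the motif TATAAA.
Krtap31-1: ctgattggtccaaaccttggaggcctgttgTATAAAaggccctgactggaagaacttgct
Krtap31-2: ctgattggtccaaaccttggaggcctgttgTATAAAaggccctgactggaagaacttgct
Krtap9-5: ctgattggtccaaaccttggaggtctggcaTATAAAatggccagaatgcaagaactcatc
Krtap4-1: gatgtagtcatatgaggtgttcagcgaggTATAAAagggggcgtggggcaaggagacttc
Krtap22-2: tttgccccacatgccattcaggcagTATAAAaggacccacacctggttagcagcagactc
The windows are chr11:99907860-99907919, chr11:99936231-99936290 and chr11:99948364-99948423 on the plus strand, and chr11:99628240-99628299 and chr16:89010760-89010819 on the minus strand, in the order shown. Krtap31-1 and Krtap31-2 are identical in all 60 bases and in 202 of the 250 bases before the start, and Krtap9-5 shares 47 of the 60 with each of them.

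RefSeq promoters were found for 46 of the 52 members. Over the 250 bases before the start, TATAAA occurred on either strand in 37 of 46 (80.4%), against 12.4% of 32851 promoters of all genes. Counted only on the sense strand and between 40 and 16 bases before the start, it occurred in 29 of 46 (63.0%), against 1.99% of all. The cores CTTTGA and CTTTGT, which LEF and TCF factors bind, occurred on either strand in 21.7% and 26.1% of the members, against 13.8% and 16.5% of all promoters. GACGC, a core of FOXN1 sites, occurred on either strand in 6.52% of members, against 22.6% of all. CTTTGA and CTTTGT differ in their last letter alone, and a match or its absence describes these letters in this window only.

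Copies limit how far single rows can be read. A 150-base window, the length of a read, was shared word for word with another gene in 14 of the 52 members, and 7 members shared at least 20% of their windows. Krtap4-13 shared 51.2% of its windows with Gm11554 and Gm11569, Krtap3-3 shared 31.3% with Krtap3-2, and Krtap31-2 shared 24.2% with Krtap31-1. The sources used here do not say how reads that fit several genes were counted, so the values of these members are uncertain. The 17 genes in the table under other names that share such a window with a member summed to 335, 615 and 421 CPM in HS scars and 388, 654 and 395 CPM in NS scars. Adding them, a choice made after seeing the data, gave a log2 ratio of HS to NS of 0.08 for the family.

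Other hair genes are given for scale. Of the 14 tested hair shaft keratins, 0 were called, where 8.85% of all genes tested were, with a median log2 fold change of 0.06. Krt31 was at 212 ± 10.6 CPM in HS scars and 222 ± 62.3 CPM in NS scars, Krt33b at 164 ± 2.54 in HS and 159 ± 44.7 in NS, and Krt86 at 206 ± 22.7 in HS and 182 ± 34.0 in NS, with adjusted p of 0.8473, 0.9192 and 0.4545 (edgeR). Krt35, a keratin of the early cortex and cuticle, had 210, 281 and 231 CPM in HS, against 393, 347 and 293 CPM in NS, without overlap (log2 fold change -0.52 ± 0.137, adjusted p = 0.05103). Krt36, named after its values were seen, did not overlap either (-0.54 ± 0.145, adjusted p = 0.05226, edgeR). These were the 2 of 14 shaft keratins without overlap (14.3%), against 32.3% of all genes tested. Krt35 was called by DESeq2 (adjusted p = 0.008857) and by edgeR without HS replicate 2 (0.002449), without the filter (0.0401), with RLE size factors (0.04978) and with the total alone (0.04297). Of 9 other hair shaft proteins, 2 were called lower and 0 higher in HS, where 2.51% and 6.33% of all genes were. They were Crym (-0.56 ± 0.116, adjusted p = 0.02373, edgeR) and Mt4 (-0.41 ± 0.105, adjusted p = 0.04329). All 9 had log2 fold changes below 0, with a median of -0.24, and their summed levels overlapped between the groups. Of the 12 inner root sheath genes, which mould the shaft from outside, 6 were called lower and 0 higher in HS, where 2.51% of all genes tested were called lower and 6.33% higher, with a median of -0.47. Krt71 had 2830.8, 3572.7 and 3327.1 CPM in HS, against 5268.8, 5052.3 and 4280.6 CPM in NS (-0.59 ± 0.140, adjusted p = 0.03622), and Tchh was at 9310.7 ± 798 CPM in HS scars and 11944.4 ± 1106.7 CPM in NS scars (-0.36 ± 0.143, adjusted p = 0.1456). Of the 16 matrix regulators and signals, 2 were called lower and 0 higher in HS, against the same 2.51% and 6.33% of all genes, with a median of -0.43. Hoxc13, a regulator of shaft keratin genes, was at 77.2 ± 15.9 CPM in HS scars and 114 ± 7.24 CPM in NS scars (-0.56 ± 0.140, adjusted p = 0.04217). Without HS replicate 3, or without any 1 of the NS replicates, the calls of Krt71 and Hoxc13 were lost, at adjusted p of 0.08621 to 0.1614 for Krt71 and 0.114 to 0.1497 for Hoxc13 (edgeR). Their log2 fold changes in these fits were -0.54 to -0.68 for Krt71 and -0.52 to -0.61 for Hoxc13. Foxn1, Lef1, Msx2 and Shh were at -0.28 ± 0.125, -0.49 ± 0.194, -0.68 ± 0.182 and -0.91 ± 0.319, with adjusted p of 0.1886, 0.1576, 0.05618 and 0.1132 (edgeR). Msx2 was called by DESeq2 (adjusted p = 0.006694), by limma-voom (0.04944), and by edgeR with the total alone (0.04779), with the replicate block (0.02756) and without HS replicate 2 (0.0002913). Foxn1, Lef1, Shh and Tchh were called by edgeR without HS replicate 2 (adjusted p = 0.01205, 0.001612, 0.02447 and 0.02179), where 22% of all genes were, and Shh and Tchh also by DESeq2 (0.026 and 0.01543). Set against the inner root sheath list, Krtap counts per count were 0.160, 0.191 and 0.153 in HS, against 0.104, 0.163 and 0.0855 in NS, and the groups overlapped.

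Markers of other cells differed between the same libraries. Of the 9 fibroblast markers, 8 were called higher in HS, where 6.33% of all genes tested were. They summed to 60658.4, 28854.6 and 48711.6 CPM in HS and 12059.5, 15265.9 and 15628.0 CPM in NS, and none of the 9 was at 0 in any library. HS replicate 2, the HS library with the highest Krtap sum, had the lowest fibroblast sum of its group. NS replicate 2, the NS library with the highest Krtap sum, did not, and NS replicate 1 had the lowest fibroblast sum of NS. The 13 markers of the epidermis between follicles summed to 17573.8, 27520.6 and 18076.6 CPM in HS scars and 25357.2, 30397.6 and 34812.4 CPM in NS scars, with none at 0. NS replicate 3, with the lowest Krtap sum, had the highest epidermal sum. HS replicate 2, with the highest Krtap sum of HS, also had the highest epidermal sum of HS. Of these 13, 3 were called lower and 0 higher in HS, where 2.51% of all genes were called lower. The part of these cell types in the Krtap values was not tested.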

How the data were processed

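RNA of 6 skin scar samples (3 HS, 3 NS) was depleted of ribosomal RNA and read as paired ends of 150 bases, per the labels' protocols. The values used are whole-number counts that the authors deposited without normalization, as the file headers say. The submitters' processing notes name HISAT2 2.0.4 as a tool beside HTSeq 0.9.1, cutadapt 1.9.3 and edgeR, and mm10 as the build; settings, annotation and strand mode are not given there. A further 6 columns, normalized by the authors, were left aside.

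Groups and replicate numbers came from the sample titles. edgeR 4.0.16 (R 4.3.3) was run on all genes: filterByExpr with a minimum count of 10 (14513 of 17572 genes kept), TMM scaling (factors 0.955 to 1.033), robust quasi-likelihood fit with the group as the only term, and Benjamini-Hochberg adjustment at 0.05. Standard errors are the log2 fold change over the square root of F. Levels are CPM of the TMM-scaled total, in which 1 count was worth about 0.03589 to 0.04908 CPM before scaling. Depth sets the precision of low members only, and floors cover counting error only. Within groups, chi-square per gene was 14.2 to 107 between libraries, so the libraries of a group differed by more than sampling noise. Per Krtap gene it was 42.6 to 249 in HS and 163 to 415 in NS. Over all genes it was 47.9 to 107 in HS and 14.2 to 20.7 in NS. The procedure was tested on simulated data, with differences put into 200 genes of at least 1 CPM on average. It found 8.96% of the 1.5-fold differences, 85.1% of the 2-fold ones and 100% of the 4-fold ones. Its 137 calls included 8 false ones. Differences near 1.5-fold would thus mostly be missed. Krtap members had larger standard errors than all genes tested (medians 0.368 and 0.163), so recovery may be lower for them. Coordinates, exon lengths, shared windows and composition came from GENCODE M21, which matched all 52 members by identifier, and promoters from RefSeq (GRCm38.p6). Composition was read from translated coding sequences, since no RefSeq protein table was used here.

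Alternatives were DESeq2 1.42.0, limma-voom (limma 3.58.1), other scalings and filters, a replicate block, rows summed by subfamily, and each library left out. By rule, the most abundant member of each of the 25 subfamilies, every called member and a set of hair genes were named; other members were named after their values were seen, and Krt85 was not analysed here. The members and the gene lists were chosen with earlier results of these data known. With 3 against 3 libraries an exact two-sided permutation test of a single sum could not go below p = 0.1, so sums were described without a test.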

Additional observations from a re-analysis of the deposited data

How the results depend on the processing

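No Krtap gene was called by edgeR under other size factors, scaling by the total alone, other filters, no robust step, or totals without hair genes, nor by limma-voom. DESeq2 called 2, and fits without 1 library called between 0 and 1; the one call, Krtap4-8, came without HS replicate 2. Sums by subfamily gave 0 calls under each scaling, the block and each left-out library. Over all genes, 1284 were called (919 higher and 365 lower in HS), DESeq2 called 2435, and the count ran from 25 without NS replicate 2 to 3257 without HS replicate 2. Scaling by the total alone gave 930 higher and 585 lower. The cause of these shifts was not tested.

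The median log2 fold change of the tested members, 0.11, was 0.40 without NS replicate 2, and -0.06 without HS replicate 2 or without NS replicate 3. The family's log2 ratio of HS to NS ran from -0.11 to 0.37 when 1 library was left out, and was 0.05 when scaled by the total alone. The class ratios, main values 0.14, -0.06 and 0.13, ran from -0.07 to 0.34 (high sulfur), -0.38 to 0.17 (ultra-high sulfur) and -0.16 to 0.50 (high glycine-tyrosine). A second class rule, chosen after seeing the data, gave 0.13, -0.02 and 0.13. The log2 ratio of Krtap to shaft keratin counts, 0.13, ran from -0.01 to 0.35, and was 0.52 against the inner root sheath list.

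The replicate number as a block gave 0 Krtap calls, with 9 members at an unadjusted p under 0.05 against 5 without it, and 1001 calls over all genes. Same-numbered libraries had correlations of deviations of 0.018, 0.0133 and 0.036 over all genes. Over the tested Krtap members these were 0.768, 0.609 and 0.0921, and not every library correlated best with its own number. The labels name no animals, so whether the numbers pair the libraries cannot be told from these values. Under the block, Krtap6-1 was at 0.08 and Krtap13-1 at 0.02, with signs opposite to their main values of -0.02 and -0.01, as under limma-voom at 0.10 and 0.03. Scaled by the total alone, Krtap5-5 was at -0.03, Krtap9-3 at -0.01, Krtap12-1 at -0.04, Krtap16-1 at -0.03 and Krt33b at -0.02, each above 0 in the main fit.

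Leaving out 1 library took the log2 fold change of 17 named members and of Krt31 and Krt33b across 0. On chromosome 11, Krtap2-4 ran from -0.24 to 0.61, Krtap3-3 from -0.21 to 0.31, Krtap4-1 from -0.33 to 0.49, Krtap9-3 from -0.13 to 0.22, Krtap16-1 from -0.14 to 0.13 and Krtap29-1 from -0.15 to 0.46. On chromosome 16, Krtap6-1 ran from -0.34 to 0.61, Krtap7-1 from -0.09 to 0.35, Krtap8-1 from -0.31 to 0.04, Krtap13-1 from -0.26 to 0.13, Krtap14 from -0.02 to 0.51, Krtap21-1 from -0.45 to 1.30, Krtap22-2 from -0.18 to 0.53 and Krtap26-1 from -0.37 to 0.10. Krtap5-5 ran from -0.16 to 0.14, Krtap10-10 from -0.38 to 0.01, Krtap12-1 from -0.28 to 0.30, Krt31 from -0.26 to 0.14 and Krt33b from -0.17 to 0.22. The calls of Krt71 and Hoxc13 were lost under the block (log2 fold changes -0.59 and -0.58, adjusted p = 0.08401 and 0.05206, edgeR) and in 4 of 6 fits without 1 library. Low counts left Krtap13, Krtap20-2 and Krtap4-13 untested, and Krtap5-1, Krtap9-5 and Krtap31-1 had counts as low as 7, 0 and 11 in NS replicate 3.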
